A study of Rattus norvegicus with 27 samples.

Results

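The comparison described here is that of limited bedding (LB) with normal rearing (no treatment, NT) in female rats, across genes, gene families and cell type markers. Its members are the 12 of 27 sequenced animals whose labels give the female sex: 7 LB females with the titles 5021, 5022, 5023, 8021, 8022, 8023 and 8024, and 5 NT females with the titles 1011, 1013, 2011, 2012 and 2013. The other animals were 8 LB males and 7 NT males. All were Long-Evans rats whose tissue was taken on postnatal day 70 from punches of the interpositus nucleus, a deep nucleus of the cerebellum. In LB cages a wire mesh kept dam and pups away from the bedding and little nesting material was given, from postnatal day 2 to 9. NT cages gave full access to bedding and more nesting material. All pups, NT included, were born to dams shipped while pregnant and were cross-fostered at the start of the manipulation, and all were kept in normal cages afterwards and weaned into cages with others of their sex and treatment. Titles that share all but the last digit belonged to animals of the same sex and treatment, and the labels do not say whether such animals shared a cage, a litter or a day of preparation, so p values measure only the spread between these animals.

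Limited bedding is a model of early-life stress in which scarce nesting material disturbs maternal care. The interpositus nucleus carries cerebellar output and receives inhibition from Purkinje cells, whose own input comes largely through granule cells. A punch of the nucleus can take in neighbouring granule cell layer, white matter, vessels and, at the surface or in the folds, leptomeninges, the collagen-rich membranes in which fibroblasts and an epithelium-like barrier layer lie. In such bulk tissue fewer cells of a type and less RNA per cell cannot be told apart.

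Raw counts per gene were divided by the library total times its TMM factor, which edgeR estimates, and are given as CPM. Such CPM is not exactly a gene's share of the raw counts of its library. Total counts were between 13672167 and 19942764 per female, and 3 counts, the floor taken for detection, came to between 0.148 and 0.217 CPM. A log2 fold change is positive where LB was higher. It comes, with its Benjamini-Hochberg adjusted p, from the quasi-likelihood test of edgeR over 12107 genes. The 4 groups of 27 animals were in 1 model, and the threshold was an adjusted p of 0.05. The standard error (SE) was derived from that test, as the absolute log2 fold change over the square root of the F statistic. All listed markers of granule cells (12), Purkinje cells (10) and projection neurons of the deep nuclei (15) had enough counts for a test, whereas of 8 markers of cholinergic motor neurons 5 did and 2 were at 0 in every female.

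The library of 5022 stood apart from the others. Genes with a summed exon length of at least 6000 bases took 5.83% of its counts, against 9.4 to 10.5% in the NT females and 8.15 to 11.6% in the other LB females, and genes under 1000 bases took 15.2%, against 7.13 to 8.66% in the NT females. Its most counted gene, Mbp, took 2.85% of all counts and at most 1.13% in the other females. The library of 8021 deviated the other way, with 11.6% of counts in the long genes and 6.5% in the short ones. Over the group the share in long genes was 9.01% ± 1.82 (SD, n = 7) in LB and 10.1% ± 0.44 (SD, n = 5) in NT females, a difference of -1.05 percentage points (exact two-sided permutation test, p = 0.245). Without 5022 the difference was -0.519 points (exact two-sided permutation test, p = 0.42). LB females also varied more among themselves than NT females. The median over genes of the SD of log2 CPM was 0.349 in LB and 0.151 in NT females, and 0.242 in LB females without 5022. In males the order was the reverse, with 0.261 in LB and 0.375 in NT. As 5022 stood apart, counts, medians and most fold changes are given with 5022 and without it.

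Few differences passed the test. With all 12 females 1 gene of 12107 passed the threshold (0.00826%), Itgb4, which fell in LB, and without 5022 it was again the 1 gene of 12087 (0.00827%). The median of the absolute log2 fold change over genes was 0.17, below the median SE of 0.20, and 109 genes differed more than 2-fold, 62 of them higher and 47 lower in LB. Signs were near balance, with 6409 genes (52.9%) higher in LB.

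At an unadjusted p under 0.05 the picture was lopsided, and most of that lay with 5022. With it 841 genes were higher in LB (6.95% of those tested) and 120 were lower (0.991%). Without it 273 were higher (2.26%) and 102 lower (0.844%). Of the 961 genes at this level, 344 were still at it without 5022, 268 higher and 76 lower. Dropping 1 library thus took away far more of the higher than of the lower genes. With both 5022 and 8021 left out, 702 genes were higher and 471 lower at this level, and 2 genes passed the threshold, Itgb4 and Cdh1.

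The number of genes called turned on how much each library was trusted. DESeq2 called 6 genes with all females and 4 without 5022, and limma-voom called 3 and 1. When limma estimated 1 weight per library, 5022 received 0.103 and 8021 received 0.386, whereas 8024 received 4.33 and 1013 received 3.9, and 1971 genes passed, 1082 of them higher in LB. Without 8024 the weighted fit called 7 genes, all lower in LB. Among them were Itgb4, Slco2a1, Fmod, Aldh1a2, Gstm2 and Tnnt2. The last 3 were named after their values were seen.

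Among the genes lower in LB that had the smallest p values were Itgb4, Slco2a1, Cdh1, Upk1b and Adamtsl3, and each kept its direction when 5022 was left out. Itgb4, on chromosome 10 at 104524000 to 104560180 of rn6, encodes integrin beta-4, the laminin receptor subunit of hemidesmosomes. It was at 5.68, 5.69, 3.15, 3.46 and 5.55 CPM in the NT females. In the LB females it lay between 0.543 and 1.38 CPM, with a median of 0.62 CPM. The groups did not overlap. Its log2 fold change was -2.55 (SE 0.33, edgeR adjusted p = 0.000264), or 5.87-fold lower in LB, and -2.49 (SE 0.34, edgeR adjusted p = 0.0014) without 5022. With a random block for animals that share all but the last digit of the title, the adjusted p of limma-voom was 0.0256 with all females and 0.0468 without 5022. The NT blocks were 1011 and 1013, and 2011 to 2013, and the LB blocks 5021 to 5023, and 8021 to 8024. With so few blocks per group this fit can say little about differences between cages or litters, if the blocks are such.

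Slco2a1, on chromosome 8 at 111495443 to 111577320, encodes the transporter that takes prostaglandins into cells for breakdown. NT females had 3.75, 2.65, 1.53, 1.99 and 2.02 CPM, and LB females had 0.489 to 1.09 CPM with a median of 0.796 CPM. The groups did not overlap, and 5022 was the LB female nearest to NT. The log2 fold change was -1.55 (SE 0.32, edgeR adjusted p = 0.208), and -1.63 without 5022.

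Cdh1, on chromosome 19 at 38768467 to 38838395, encodes E-cadherin, the adhesion protein of epithelia. NT females had 7.5, 5.62, 1.97, 3.36 and 6.12 CPM. Of the LB females 6 were between 0.302 and 0.865 CPM, and 8021 was at 3.58 CPM, inside the NT range. On the log2 scale the fold change was -2.34 (SE 0.50, edgeR adjusted p = 0.219), or -2.22 without 5022, and without 8021 it was -3.26 with an adjusted p of 0.000292. Here and in the other genes given without 8021, that animal stood out by these same values. Its omission was thus bound to enlarge the difference, and no conclusion is drawn from those p values.

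Adamtsl3, on chromosome 1 at 144238958 to 144561065, encodes a secreted protein of the extracellular matrix. It had the same outlying animal. NT females were at 6.33, 3.81, 1.77, 2.85 and 2.78 CPM, 6 LB females were between 0.571 and 1.33 CPM, and 8021 was at 2.49 CPM. The log2 fold change was -1.66 (SE 0.38, edgeR adjusted p = 0.298), or -1.55 without 5022, and -2.0 without 8021, with an adjusted p of 0.0293.

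Upk1b, on chromosome 11 at 64522215 to 64553233, encodes uroplakin 1b, a tetraspanin of epithelial membranes. The NT libraries held 17, 14, 6, 7 and 14 counts. The LB libraries held 0 to 3 counts, at or under the floor in all of them, so the fitted log2 fold change of -3.33 (SE 0.73, edgeR adjusted p = 0.228) depends on the prior count, as does the -3.13 without 5022.

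**Figure D1:**
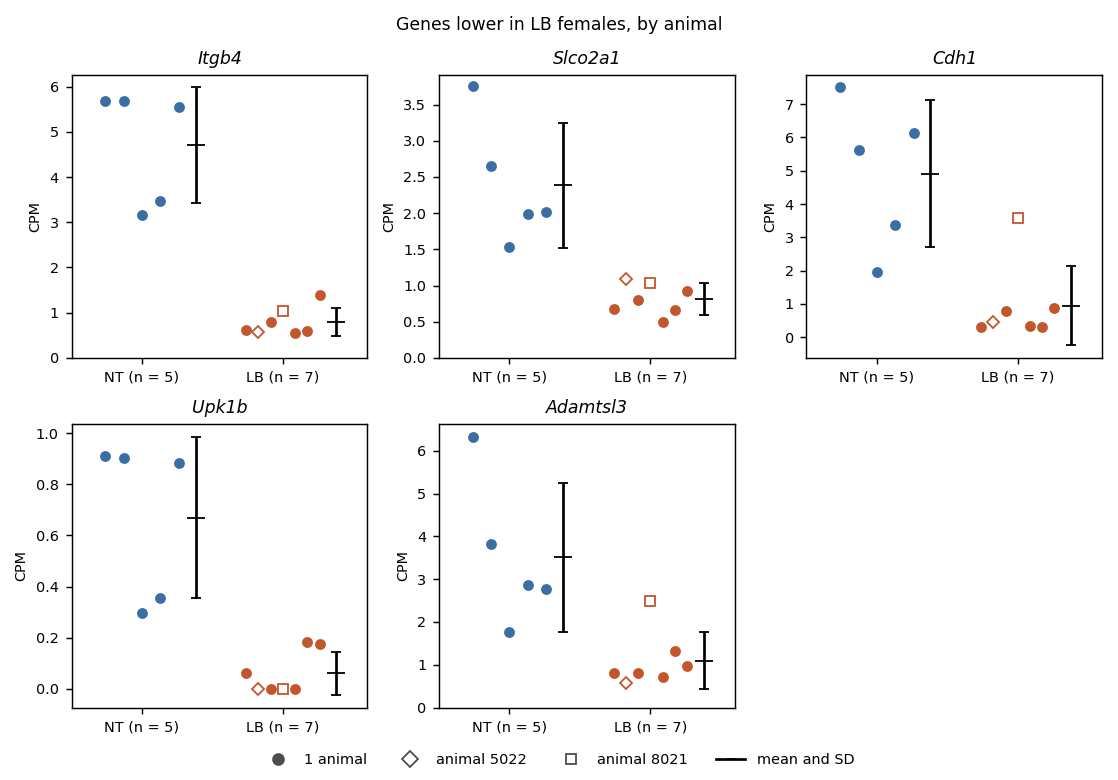
CPM (vertical axis, linear) of 5 genes with small p values among those lower in LB, for each of 5 NT and 7 LB females, with the mean and SD beside each group. Open diamonds mark 5022 and open squares 8021. All LB points lie below all NT points for Itgb4, Slco2a1 and Upk1b, and 8021 alone reaches the NT range for Cdh1 and Adamtsl3.

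Markers of meningeal fibroblasts mostly had negative log2 fold changes as well. Of 16 listed, 14 could be tested, 13 of them with a negative value, and 6 were lower at an unadjusted p under 0.05 with 5022 and 6 without it, against 0.991% and 0.844% of all genes. Their median log2 fold change was -0.44 with 5022 and -0.45 without it, beside 0.02 and 0.01 over all genes. No marker passed the adjusted threshold. Fmod, which encodes the collagen-binding fibromodulin, was at 9.22, 9.76, 5.71, 6.98 and 8.27 CPM in NT and at 1.52 to 7.06 CPM (median 2.69 CPM) in LB females, with 8021 the highest. This gave a log2 fold change of -1.33 (SE 0.33, edgeR adjusted p = 0.558), and -1.67 without 8021, where the adjusted p was 0.0313. Slc47a1, a drug and cation exporter, was at 9.43, 5.11, 1.08, 4.63 and 4.61 CPM in NT and at 0.124 to 3.27 CPM (median 0.461 CPM) in LB females, again with 8021 the highest. Its log2 fold change was -2.54 (SE 0.66, edgeR adjusted p = 0.576), and -3.51 without 8021, where the adjusted p was 0.0293. In Fmod and Slc47a1 alike, leaving out the LB female nearest to NT was bound to enlarge the difference. Aldh1a2, which makes retinoic acid, had a log2 fold change of -0.80, the GABA transporter gene Slc6a13 one of -0.52 and the fibrillar collagen gene Col3a1 one of -0.52, and their groups overlapped. Without 5022 these were -0.79, -0.55 and -0.47, and those of Fmod and Slc47a1 were -1.30 and -2.46.

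The summed CPM of the 16 meningeal markers was 290.2 to 440 in NT and 207 to 436 in LB females. The mean log2 value of the 14 tested markers, centred over the 12 females, was -0.02 to 0.64 in NT and -0.61 to 0.10 in LB females, with 8021 the highest LB female. Of the defining fibroblast markers Ogn was at 0 in every female and Col1a2 had at most 4 counts. The same mean, centred over all 27 animals, served as a covariate in an alternative added after the data were seen. The log2 fold change of Itgb4 was then -1.82 (SE 0.36, edgeR adjusted p = 0.378), and 0 genes passed. At an unadjusted p under 0.05 there were then 957 genes, 73 of them lower in LB. Without 5022 the same fit gave 134 genes, 107 higher and 27 lower, and Itgb4 was at -1.70 (edgeR adjusted p = 0.999). With a covariate for deep nucleus against granule cell markers, Itgb4 had -2.60 (edgeR adjusted p = 0.000273). The meningeal mean was itself mostly lower in LB females, so a fit with it as covariate cannot separate it from treatment. The part of the meningeal markers in the lower genes was not tested.

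Every LB female lay below every NT female for 18 genes of 12107 (0.149%), and above for 22 (0.182%). Without 5022 the counts were 25 (0.207%) and 24 (0.199%). For a single gene, full separation in either direction gives the smallest p of an exact two-sided permutation test, 0.00253, and 0.00433 without 5022. It would be met at about that rate under random group labels, and no conclusion is drawn from these counts. Beyond the genes above, those with every LB female below included Cpxm2 and Sfrp1, named after their values were seen. Cpxm2, a secreted carboxypeptidase-like protein, was at 7.99, 5.88, 3.5, 3.97 and 6.18 CPM in NT and 0.651 to 3.32 CPM (median 1.49 CPM) in LB females (log2 fold change -1.68, and -1.64 without 5022). Sfrp1, a secreted inhibitor of Wnt signalling, was at 15.3 to 25.6 CPM in NT and 9.41 to 14.7 CPM in LB females (log2 fold change -0.53, and -0.56 without 5022). Tnnt2 was at 2.63, 5.75, 3.25, 3.16 and 4.16 CPM in NT and 0.272 to 2.17 CPM in LB females.

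A pair of genes for subunits of the phagocyte NADPH oxidase separated in opposite directions, and both were named after their values were seen. Cybb, the catalytic subunit, had 10 to 16 counts in NT and 1 to 7 in LB libraries, with a log2 fold change of -1.47, and -1.30 without 5022. Ncf4, a cytosolic regulator, had 3 to 8 counts in NT and 8 to 14 in LB libraries, with a log2 fold change of 0.95, and 0.94 without 5022. Both rest on few counts, and edgeR gave each an adjusted p of 0.576.

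On the higher side the genes with the smallest p values were Mylpf, Snf8, LOC100363289, Uqcrb, Mrps21 and Rps19, and none passed the threshold. Mylpf, on chromosome 1 at 198655835 to 198658590, encodes a regulatory light chain of fast muscle myosin. It was at 0.322, 0.323, 0.295, 0.407 and 0.568 CPM in NT and at 0.571 to 1.09 CPM (median 0.784 CPM) in LB females. The groups did not overlap, though the nearest values of 0.568 and 0.571 CPM almost met, and the counts were 5 to 9 in NT and 8 to 19 in LB libraries. The fitted log2 fold change was 1.09 (SE 0.27, edgeR adjusted p = 0.544), and 1.01 without 5022.

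In 4 of the other 5 genes 5022 was the highest LB female. Snf8, part of the ESCRT-II sorting complex, was at 44.1 to 70.9 CPM in NT females, at 158 CPM in 5022 and at 56.1 to 97.4 CPM in the other LB females, so the groups overlapped. Its log2 fold change was 0.69 (SE 0.19, edgeR adjusted p = 0.576), and 0.48 without 5022. Uqcrb, a subunit of respiratory complex III, was at 96.8, 115, 104, 98 and 119 CPM in NT females, at 132 to 194 CPM in 6 LB females and at 86.8 CPM in 8021, below every NT female. Here 5023 was the highest, and without 8021 the log2 fold change was 0.59 with an adjusted p of 0.0469. Mrps21, of the mitochondrial ribosome, was at 39.8 to 51.1 CPM in NT females, at 121 CPM in 5022 and at 37.6 CPM in 8021. With all females the log2 fold changes of Uqcrb and Mrps21 were 0.49 (SE 0.14) and 0.63 (SE 0.18), and 0.45 and 0.44 without 5022.

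Rps19, of the small cytosolic ribosomal subunit, was at 1.55, 2.33, 2.56, 2.75 and 2.78 CPM in NT females, at 10.2 CPM in 5022 and at 1.35 CPM in 8021. That is a log2 fold change of 1.06 (SE 0.31), and 0.79 without 5022. The exons of Rps19 in the table lie on more than 1 chromosome, so its counts are uncertain. LOC100363289 was at 0.0492 to 0.713 CPM in NT and 0.302 to 2.06 CPM in LB females (log2 fold change 1.75, SE 0.50, and 1.53 without 5022).

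**Figure D2:**
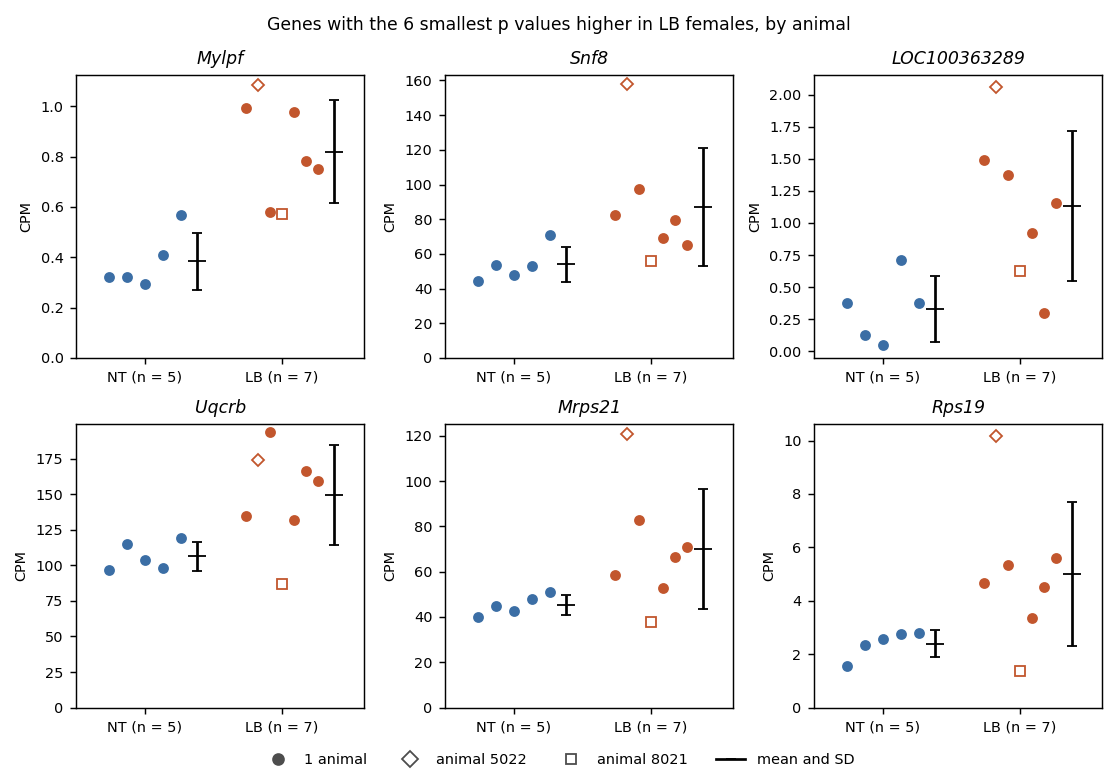
CPM (vertical axis, linear) of the 6 genes with the smallest p values among those higher in LB, for each of 5 NT and 7 LB females, with the mean and SD beside each group. The open diamond of 5022 is the highest point in every panel but that of Uqcrb, up to 158 CPM for Snf8, and the open square of 8021 lies below every NT female for Uqcrb, Mrps21 and Rps19.

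These genes are short, and length ran through the whole comparison. The 841 genes higher in LB at an unadjusted p under 0.05 had a median summed exon length of 1044 bases, and the 273 without 5022 had 883 bases, beside 2197 bases over the genes tested and 2204 bases for the lower ones. Genes under 500 bases had a median log2 fold change of 0.40, those of 500 to 1000 bases 0.34 and those of 1000 to 2000 bases 0.10. From 2000 to 3000 bases it was -0.01, and it went down to -0.12 at 6000 bases or more. Without 5022 the medians were 0.25, 0.20 and 0.05 in the 3 shortest classes and -0.05 in the longest, so the gradient kept its direction and was less steep. In males, the same classes ran from 0.23 to -0.15.

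The LB females differed among themselves along this gradient. For genes of 500 to 1000 bases the median deviation from the mean of the 12 females was 0.72 in 5022, 0.27 in 5023, 0.18 in 5021 and 0.15 in 8024, but -0.03 in 8023, -0.13 in 8022 and -0.36 in 8021. NT females lay between -0.24 and -0.04. Thus 5 LB females were above every NT female, 8023 by little, 8022 was within the NT range and 8021 was below it. With the slope of log2 CPM on log2 length in each animal as a covariate, 120 genes were higher and 107 lower at an unadjusted p under 0.05, and Itgb4 kept a log2 fold change of -2.55 with an adjusted p of 0.00157. RNA integrity values for single animals were not used here, and their part in the gradient was not tested.

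**Figure D3:**
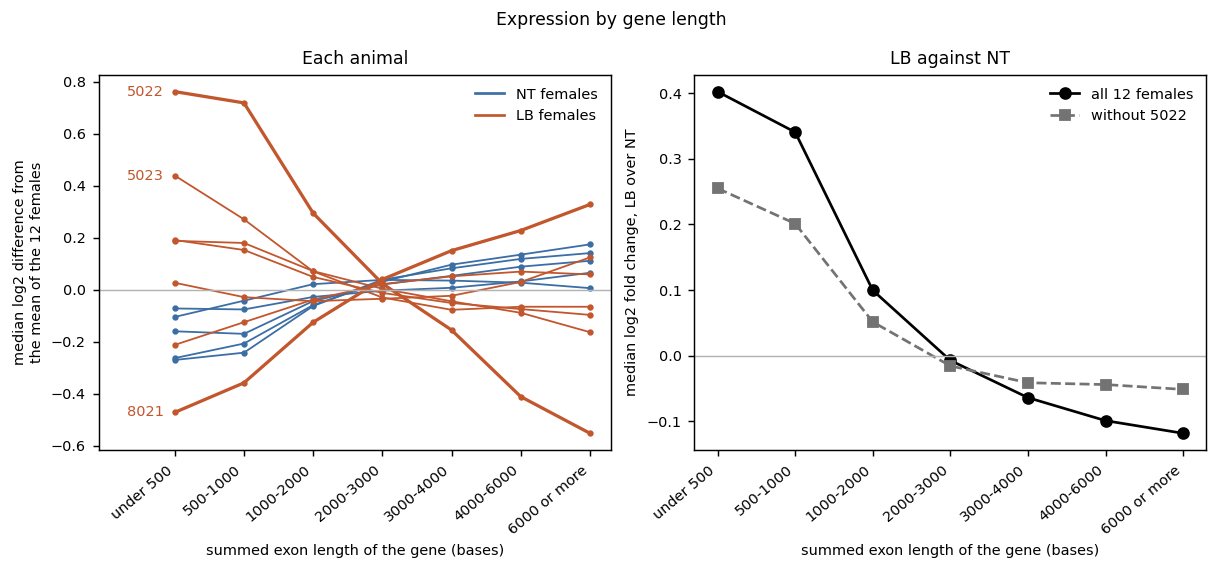
Left, for each of 12 females, the median over genes of the log2 CPM minus its mean over the 12 females, by summed exon length of the gene in bases. Right, the median log2 fold change of LB over NT by the same classes with and without 5022. The lines of 5022 and 8021 lie outside all NT lines in the shortest and longest classes, in opposite directions, and the right-hand gradient, from 0.40 to -0.12, runs from 0.25 to -0.05 without 5022.

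Several families of short genes had a larger share of higher members than all genes. Cytosolic ribosomal proteins had 62 of 78 tested members higher at an unadjusted p under 0.05 with 5022 and 26 without it, against 6.95% and 2.26% of all genes, and none passed the adjusted threshold. Their median log2 fold change was 0.51, and 0.36 without 5022, and 77 of 78 were positive in both. Rpl23 was at 253 to 312 CPM in NT females, 227 CPM in 8021 and 741 CPM in 5022, and its log2 fold change was 0.67, and 0.50 without 5022. Summed over the family, CPM was 20542 to 24984 in NT females, 18219 in 8021 and 51492 in 5022.

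Subunits of the respiratory chain and ATP synthase, which make ATP in mitochondria, had 52 of 84 tested members higher and 21 without 5022, with medians of 0.44 and 0.28. Ndufs6, of complex I, was at 39.4, 45.3, 43, 46.5 and 46.1 CPM in NT females, at 155 CPM in 5022, at 35.2 CPM in 8021 and at 51.9 to 79.6 CPM in the other LB females. Its log2 fold change was 0.76, and 0.48 without 5022. Proteins of the mitochondrial ribosome had 26 of 68 higher and 10 without 5022, with medians of 0.30 and 0.17, among them Mrps21 and Mrpl42 (0.40, and 0.38 without 5022). Proteasome subunits had 13 of 38 higher and 1 lower, and 2 and 0 without 5022, with medians of 0.24 and 0.17. Psmb9, an interferon-inducible catalytic subunit, had a log2 fold change of 0.78 and Psmc1, an ATPase of the cap, one of 0.32, while Psmd5, an assembly chaperone, had -0.24. Without 5022 these were 0.55, 0.21 and -0.16.

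With the length covariate the medians of these families came close to 0. Over all 12107 genes 120 were then higher and 107 lower at an unadjusted p under 0.05. The median was 0.11 for cytosolic ribosomal proteins, with 12 of 78 members higher and 1 lower at this level. It was 0.07 for the respiratory chain (7 of 84 higher), 0.05 for mitochondrial ribosomal proteins (5 of 68) and 0.05 for the proteasome (1 of 38). For comparison, all genes of 500 to 1000 bases had a median of 0.34 without the covariate. The median exon length of the cytosolic ribosomal genes was 683 bases and that of the respiratory chain genes 706 bases. The slope used as covariate was taken over all genes tested, these families included. Part of their drop was thus built in, and its cause was not tested.

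Some families of genes for the neuronal surface had negative medians. Protocadherins, adhesion proteins that give neurons their cell-surface identity and have a median exon length of 4658 bases, had a median log2 fold change of -0.27, with 40 of 48 negative and none at an unadjusted p under 0.05. The median was -0.18 without 5022 and -0.07 with the length covariate. Their summed CPM was 499 to 578 in NT females, 298 in 5022 and 794 in 8021. GABA-A receptor subunits, whose median exon length of 1786 bases is below that of all genes, had a median of -0.27, -0.07 without 5022 and 0.13 with the length covariate. The voltage-gated calcium channel subunits had -0.15, -0.12 without 5022 and 0.0079 with the length covariate. None of the 13 and 21 members tested was at an unadjusted p under 0.05.

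Solute carriers had more lower than higher members at an unadjusted p under 0.05. Of 263 tested 8 were lower and 2 higher, and without 5022 9 were lower and 1 higher. Over all genes 0.991% were lower and 6.95% higher, and 0.844% and 2.26% without 5022. The lower ones include the meningeal markers Slc47a1 and Slc6a13, and with the meningeal covariate 1 was lower and 3 were higher. Both markers are part of that covariate, so a smaller difference for them was built in, and no conclusion is drawn from it. On the higher side stood the lactate exporter gene Slc16a3 (0.61, and 0.59 without 5022) and the mitochondrial carnitine carrier gene Slc25a20 (0.30 and 0.19). Collagen chains had 2 of 24 lower with and without 5022, Col14a1 (-1.20 and -1.22) and Col3a1, and 0 higher. Integrin subunits had Itgb4 and the related Itgbl1 (-1.0, and -0.83 without 5022) lower and 0 of 21 higher, and of 8 laminin chains Lamb3 (0.47 and 0.50), of epithelial basement membranes, was higher.

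In the remaining families few members stood out. Histones had 4 of 12 higher, and 1 without 5022, against 6.95% and 2.26% of all genes, with 23.9 to 29.2 CPM of Hist1h2bh in NT and 30.4 to 43.2 CPM in LB females, without overlap. The log2 fold changes were 0.40 for Hist1h2bh and 0.97 for Hist2h2aa3, and 0.34 and 0.62 without 5022. Of 170 zinc finger genes Zfp593 (0.42) and Zfp865 (0.29) were higher and Zfp498 (-0.41) was lower. Of 17 genes grouped by symbol with the tubulins, Tubgcp2 (-0.21), of the gamma-tubulin complex, was lower. Of 39 microRNA loci, whose counts in an mRNA library come from longer transcripts over the locus, Mir3546 (0.78) was higher and Mir3102 (-0.74) lower. Vamp8 (0.49), of vesicle fusion, was the 1 gene higher of 59 grouped by symbol as synaptic vesicle genes. Without 5022 the counts for zinc finger genes, tubulins, microRNA loci and synaptic vesicle genes were all 0, and these 7 genes had values of the same sign. Sodium and potassium channels had 0 of 10 and 0 of 74, and glutamate receptors had Grm2 alone of 26.

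**Figure D4:**
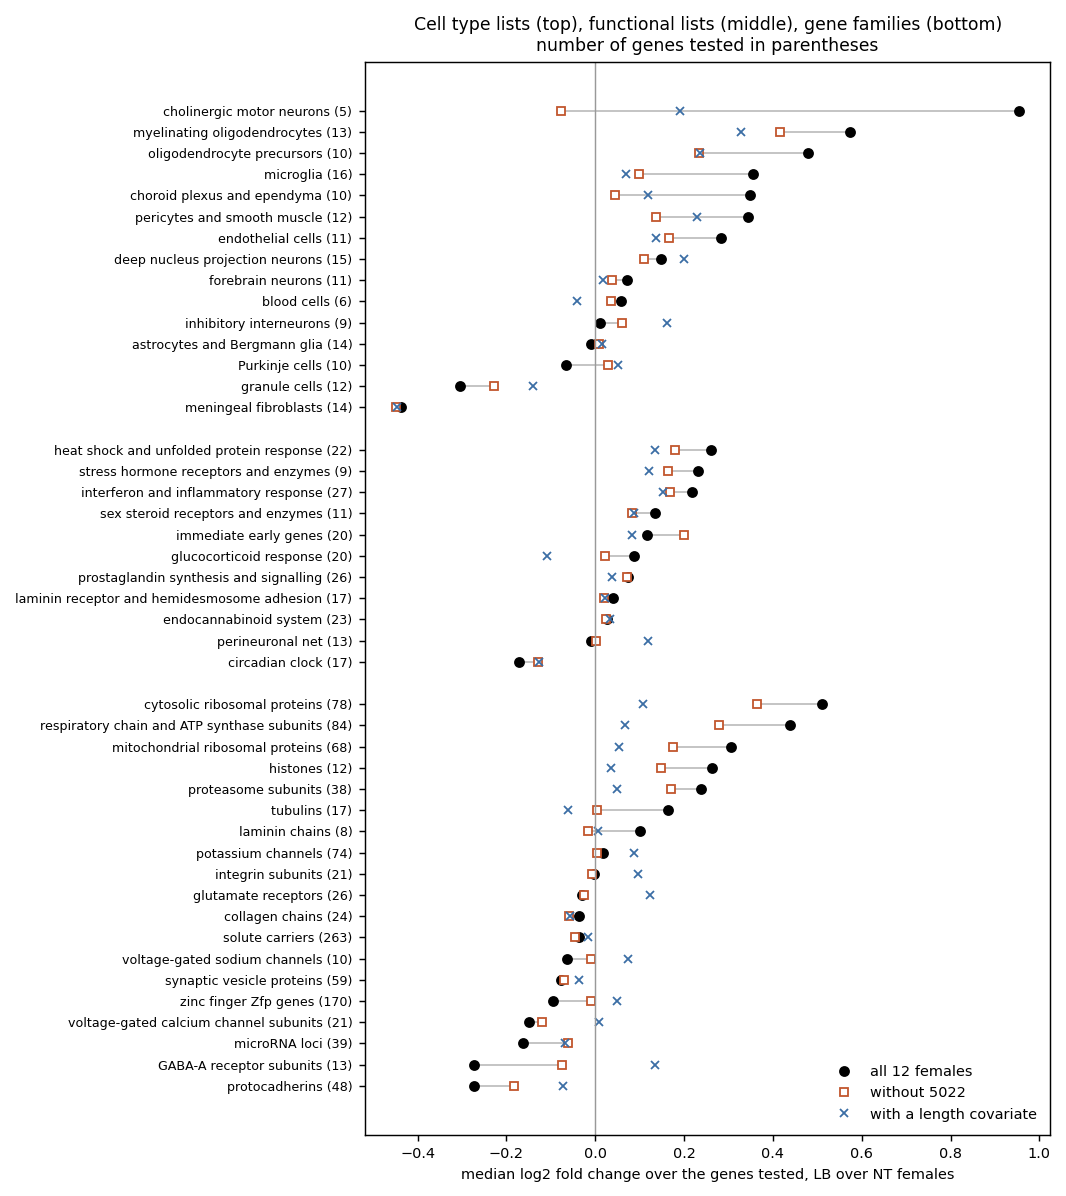
Median log2 fold change of LB over NT females over the tested genes of each list or family (horizontal axis), with all 12 females (filled circles), without 5022 (open squares) and with a covariate for gene length (crosses). Meningeal fibroblast markers stay near -0.44 in all 3, whereas cytosolic ribosomal proteins go from 0.51 to 0.36 and 0.11, and 5 of the 45 medians change sign without 5022.

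Among cell types the oligodendrocyte, microglial and vascular lists had positive medians and the granule cell list a negative one, beside 0.02 over all genes. For the counts that follow, the shares over all genes at an unadjusted p under 0.05 were 6.95% higher and 0.991% lower, and 2.26% and 0.844% without 5022. With the length covariate 120 of 12107 genes were higher and 107 lower at this level. Myelinating oligodendrocytes had 13 of 13 markers positive, 5 of them at an unadjusted p under 0.05 with 5022 and 0 without it, and a median of 0.57 that went to 0.42. With the length covariate the median was 0.33 and 0 were higher. Mbp, of compact myelin, was at 3983 to 5973 CPM in NT females, at 5673 to 11153 CPM in 6 LB females, and at 32422 CPM in 5022. LB over NT, the log2 fold change was 1.18 (SE 0.42, edgeR adjusted p = 0.576), and 0.67 without 5022. Cldn11, of the myelin tight junction, was at 199 to 275 CPM in NT and 249 to 354 CPM in 6 LB females, and at 964 CPM in 5022. It had a log2 fold change of 0.80, and 0.42 without 5022. The list's summed CPM was 8054 to 12385 in NT and 11943 to 41705 in LB females.

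Oligodendrocyte precursors had 3 of 10 markers higher and 0 without 5022, with medians of 0.48 and 0.23. Bcas1, of newly forming myelin, had a log2 fold change of 0.83, and Olig2, the lineage transcription factor, had 0.65. Olig2 was at 17.6 to 20.9 CPM in NT females, at 69 CPM in 5022 and at no more than 26.8 CPM in the other LB females. Without 5022 they had 0.59 and 0.30, and with the length covariate the list had a median of 0.23 and 0 higher.

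Microglia had 5 of 16 markers higher, and without 5022 1 higher (Aif1) and 1 lower (Cd74, named after its value was seen), with medians of 0.35 and 0.10. With the length covariate the median was 0.07 and 0 were higher. Aif1, which encodes the microglial protein IBA1, was at 7.13, 6.72, 5.91, 7.44 and 7 CPM in NT females and at 5.92 to 19 CPM (median 12.2 CPM) in LB females. Its log2 fold change was 0.73 (SE 0.25, edgeR adjusted p = 0.576), and 0.56 without 5022. C1qb, of complement C1q, was at 50.3 CPM in 5022 and at most 22.7 CPM elsewhere among females, and its log2 fold change went from 0.58 to 0.28.

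Endothelial cells had 1 of 11 markers higher, Kdr, the receptor for VEGF-A, with 18.3, 18.7, 15.9, 19.3 and 17.2 CPM in NT and 20.2 to 33.4 CPM (median 22.4 CPM) in LB females. The groups did not overlap, its exons sum to 5875 bases, and the log2 fold change was 0.44 (SE 0.16, edgeR adjusted p = 0.576), and 0.35 without 5022. Endothelial markers had medians of 0.28 and 0.16, and 0.14 with the length covariate, where 1 was higher. Pericytes and smooth muscle had 3 of 12 higher, among them Higd1b (1.02, and 0.83 without 5022) and the contractile gene Tagln (0.66 and 0.44), and 1 without 5022. Their medians were 0.34 and 0.14, and with the length covariate 0.23 with 1 higher.

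Granule cell markers were all negative, 12 of 12 with and without 5022, but 0 reached an unadjusted p under 0.05. Their median was -0.30, -0.23 without 5022 and -0.14 with the length covariate. Gabra6, a GABA-A receptor subunit of granule cells that falls outside the naming rule, was at 1160 to 1268 CPM in NT females, at 193 CPM in 5022 and at 743 to 1230 CPM in the other LB females, at a log2 fold change of -0.42 (SE 0.32, edgeR adjusted p = 0.749), and -0.24 without 5022. The summed CPM of the list was 10978 to 12172 in NT and 7744 to 11582 in LB females.

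For other neurons the medians were near that of all genes. Purkinje cell markers had a median of -0.07, and 0.03 without 5022, with Pcp2 (0.58, and 0.31 without 5022), a short Purkinje cell gene, the 1 marker higher of 10, and 0 without 5022. Markers of deep nucleus projection neurons had medians of 0.15 and 0.11 and 0 of 15 at an unadjusted p under 0.05, and their summed CPM was 1431 to 1593 in NT and 1403 to 1973 in LB females, with 5022 the highest. Of 9 interneuron markers Pvalb (0.70, and 0.45 without 5022), the calcium buffer parvalbumin, and Grm2 were higher in both, with medians of 0.01 and 0.06.

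Grm2, the metabotropic glutamate receptor of Golgi cells, fell into 2 levels. NT females were at 6.91, 4.72, 4.68, 4.99 and 3.98 CPM. LB females 5021, 5023 and 8023 were at 4.22, 3.76 and 5.13 CPM, and 5022, 8021, 8022 and 8024 were at 27.5, 22.1, 20.9 and 20.4 CPM. The fit gave a log2 fold change of 1.56 (SE 0.58, edgeR adjusted p = 0.576), and 1.34 without 5022. Males also spanned both levels, with 2.13 to 20.8 CPM in NT and 3.77 to 24.5 CPM in LB males, so the higher level was also reached without limited bedding.

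Astrocytes and Bergmann glia had a median of -0.01, and 0.01 without 5022, with 7 of 14 markers positive, and Sox9 (0.39, and 0.25 without 5022), a glial transcription factor, was the 1 higher. Forebrain neurons had the opioid precursor gene Penk (0.43 and 0.29) higher of 11, and 0 without 5022. Choroid plexus and ependyma had a median of 0.35, which was 0.04 without 5022, and blood cells 0.06. The median for cholinergic motor neurons of 0.95 rested on 5 genes and turned to -0.08 without 5022.

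Functional lists gave few members, and the shares over all genes given for the cell types apply to them too. Among 20 glucocorticoid response genes Hif3a, a member of the hypoxia-inducible factor family, was the 1 lower at an unadjusted p under 0.05. It was at 1.13, 1.29, 2.41, 0.764 and 0.946 CPM in NT and at 0.346 to 0.905 CPM (median 0.4 CPM) in LB females (log2 fold change -1.29, SE 0.44, edgeR adjusted p = 0.576, and -1.23 without 5022). The list's median was 0.09, and 0.02 without 5022. Fkbp5, the co-chaperone that dampens the glucocorticoid receptor, was at 29.4 to 32.6 CPM in NT and 21.2 to 30.9 CPM in LB females, a log2 fold change of -0.18, and -0.19 without 5022. The receptor gene Nr3c1 had -0.24, and -0.10 without 5022. Both fall outside the naming rule. Of 9 stress hormone receptors and enzymes 0, and of 11 sex steroid receptors and enzymes 0, were at an unadjusted p under 0.05.

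The heat shock and unfolded protein list had 5 of 22 genes higher, 2 without 5022, against 6.95% and 2.26% of all genes, with 21 positive and a median of 0.26 that went to 0.18. Hspe1, the mitochondrial co-chaperonin, was at 66.2 to 84.2 CPM in NT and 58.1 to 147 CPM (median 109 CPM) in LB females (log2 fold change 0.51). Creld2, an endoplasmic reticulum stress gene, had 0.47. The log2 fold changes without 5022 were 0.41 and 0.37. In the interferon and inflammatory list 2 of 27 were higher, the antigen presentation gene B2m (0.38, and 0.34 without 5022) and the interferon-stimulated gene Isg15 (1.02 and 0.79), and without 5022 B2m alone. Isg15 was at 1.14 to 2.57 CPM in NT and 1.61 to 6.68 CPM in LB females, with overlap.

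Clock genes had 2 of 17 lower, the transcription factor gene Tef, at 259 to 310 CPM in NT and 191 to 273 CPM in LB females (-0.37), and the kinase gene Csnk1e (-0.40), against 0.991% of all genes. Without 5022 Tef alone of the list was lower (-0.39), beside 0.844% of all genes, and Csnk1e had -0.35. The median was -0.17, and -0.13 without 5022. Of 20 immediate early genes Fos was higher, at 54.6, 107, 22.3, 60.9 and 72.2 CPM in NT and 79.5 to 182 CPM (median 131 CPM) in LB females. Its log2 fold change was 0.99 (SE 0.45, edgeR adjusted p = 0.602), and without 5022 it was 0.93 and 0 of the list were at an unadjusted p under 0.05. Neither list had a member past the adjusted threshold, and perineuronal net genes had 0 of 13 at an unadjusted p under 0.05.

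Of 23 endocannabinoid genes 2 were higher, the fatty acid binding proteins Fabp7 and Fabp5, which carry lipids including endocannabinoids inside cells. Fabp7, found in astrocytes and Bergmann glia, was at 39.7, 37.3, 44.3, 34.5 and 43.9 CPM in NT and 42 to 94.9 CPM (median 62 CPM) in LB females. In this gene 5022, at 45.5 CPM, was among the lowest LB females, and the log2 fold change went from 0.72 (SE 0.24, edgeR adjusted p = 0.576) to 0.79 without it. That of Fabp5 went from 0.54 to 0.36, and without 5022 Fabp7 alone of the list was higher. The receptor and enzyme genes had small differences, -0.29 for Cnr1, -0.26 for Mgll, 0.09 for Daglb, -0.02 for Napepld and -0.0014 for Dagla. Without 5022 these were -0.12, -0.29, -0.01, 0.11 and -0.04, and Faah had at most 5 counts in any female and was not tested. Cnr1 was at 744 to 1043 CPM in NT females, at 211 CPM in 5022 and at 680 to 1105 CPM in the other LB females.

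Among 26 prostaglandin genes Slco2a1 was lower and Cbr1 (0.47), a carbonyl reductase that acts on prostaglandins, higher. Without 5022 Cbr1 had 0.37, 0 were higher and 2 were lower. The cyclooxygenase genes Ptgs1 and Ptgs2 had log2 fold changes of 0.36 and -0.11 and the synthase gene Ptges had -0.16. Without 5022 Ptgs1 had 0.23 and Ptges -0.23. Ptgs2 was at 8.27 to 10.5 CPM in NT females, at 0.686 CPM in 5022 and at 5.27 to 17.1 CPM in the other LB females, and its log2 fold change was 0.10 without 5022.

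In males the same treatment gave other values for the lower genes. The log2 fold changes of Itgb4, Slco2a1 and Adamtsl3 were -0.85, -0.40 and -0.66 in males, and those of Cdh1 and Upk1b were -0.12 and 0.12. Fmod was at 4.34 to 16.4 CPM in NT and 8.69 to 18.4 CPM in LB males, a log2 fold change of 0.33 beside -1.33 in females. The median of the meningeal list was -0.01 in males, and the deep nucleus list had a median of -0.82 beside 0.15 in females. Several family medians had the same sign in males as in females. They were 0.37 for cytosolic ribosomal proteins, 0.26 for the respiratory chain, 0.20 for mitochondrial ribosomal proteins and -0.35 for protocadherins. The myelinating oligodendrocyte and granule cell lists had the opposite sign in males, with -0.42 and 0.27. For the higher genes the values were 0.19 in Mylpf, 0.15 in Snf8, 0.31 in Uqcrb, 0.29 in Mrps21 and 0.26 in Rps19, and 1.48 (SE 0.44) in LOC100363289, near the 1.75 of females.

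Whether LB acted differently in females and males was tested by an interaction term. It passed for 0 of 12107 genes (0.0%) by edgeR, with 570 at an unadjusted p under 0.05, and for 0 by DESeq2 and limma-voom. The interaction was -1.70 (SE 0.43) for Itgb4, -2.22 (SE 0.66) for Cdh1 and -1.66 (SE 0.45) for Fmod on the log2 scale, with an edgeR adjusted p of 0.9998 for each. Without 8021 it passed for Cdh1 (-3.10, edgeR adjusted p = 0.0412), a gene in which 8021 was the 1 LB female inside the NT range. A difference in response between females and males was thus not shown for these genes with all animals.

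**Figure D5:**
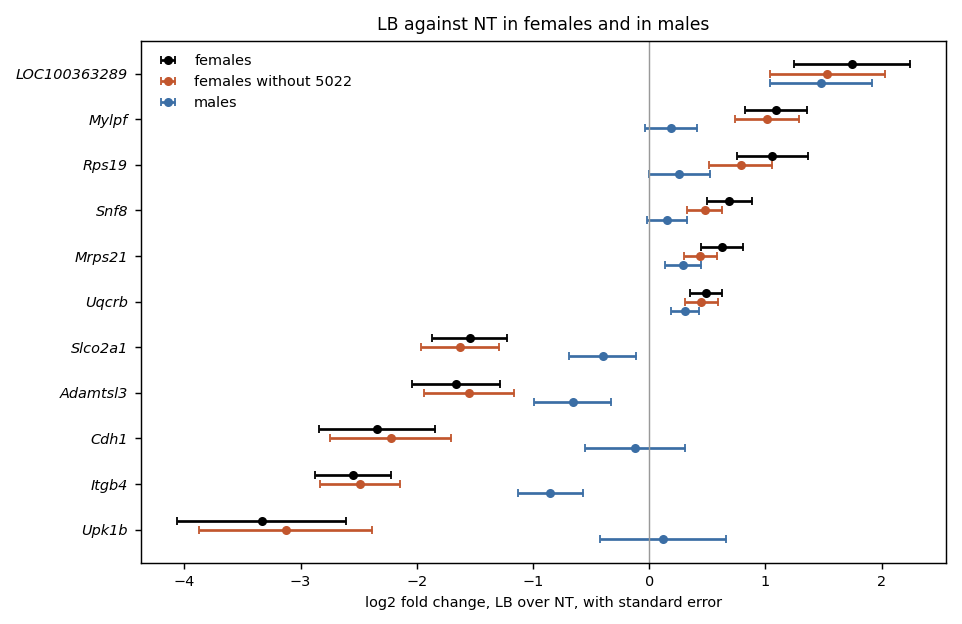
Log2 fold change of LB over NT with its standard error (horizontal axis) for 5 lower and 6 higher genes, in females, in females without 5022 and in males. For Cdh1 and Upk1b the male values of -0.12 and 0.12 lie near 0 beside -2.34 and -3.33 in females, while LOC100363289 has 1.48 and 1.75.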

How the data were processed

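mRNA was sequenced from interpositus punches of 27 rats, and the 12 females form the comparison. The authors deposited 1 table of raw counts per gene, with rn6 coordinates, for 17321 genes. Per the labels, reads were aligned with STAR 2.5.2b and counted with featureCounts of Subread 1.5.1. The annotation release, strand setting and treatment of multiply mapped reads are not given in the sources used here. The study's methods removed 3 samples of low RNA integrity.

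Genes were kept by filterByExpr of edgeR (minimum count 10), scaled by TMM and fitted in edgeR 4.0.16 (quasi-likelihood F test, R 4.3.3), with 4 groups in the model and Benjamini-Hochberg adjustment at 0.05. DESeq2 1.42.0 and limma 3.58.1 served as alternatives, beside other scaling, filters, covariates, weights and the omission of each female. Covariates for meningeal markers, weights without 8024, variances per group and the omission of 5022 with 8021 were chosen after the data were seen. The detection floor was 3 counts. Totals of 13672167 to 19942764 counts per female limit the precision of genes near the floor. The permutation test was that of scipy 1.17.1. The edgeR test was checked on simulated counts whose spread per gene was shared by all groups and which held no length gradient. That check does not cover libraries such as 5022.

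Named genes were those past the threshold with or without 5022, the 6 smallest p values in each direction, at most 2 members per list and direction at an unadjusted p under 0.05, and the receptors and enzymes of the lipids studied. Aldh1a2, Gstm2, Tnnt2, Cybb, Ncf4, Cpxm2, Sfrp1, Pink1, Cd74, Gabra6, Nr3c1 and Fkbp5 were named outside this rule. The 12 animals, the 26 lists and the 19 families were chosen with earlier results of these data known. A gene that the rule names is not reported here.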

Additional observations from a re-analysis of the deposited data

Results flagged for a closer look

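Among 166 groups of values, which cover the CPM of each named gene and 2 measures of gene length per library in NT and in LB females, 28 held a library far from the others of its group, where chance gives about 5 in 100. The library was 5022 in 16 of them and 8021 in 8, so the flags are not independent of each other.

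In CPM, 5022 was far above the other LB females for Snf8 (158), Pcp2 (2043), Pvalb (3889), Mbp (32422), Cldn11 (964), Olig2 (69.0), C1qb (50.3), Ndufs6 (155), Psmb9 (7.08), Hist2h2aa3 (6.23), Zfp865 (14.5), Slc25a20 (85.2), Vamp8 (45.8), Daglb (79.1) and Pink1 (306), and far below them for Psmd5 (30.6). Far above the other LB females, 8021 had 3.58 CPM of Cdh1, 2.49 of Adamtsl3, 7.06 of Fmod, 3.27 of Slc47a1, 1.09 of Col14a1, 53.1 of Tubgcp2 and 3.69 of Mir3102, and far below them 38.3 of Mrpl42.

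The remaining cases were 1011, lowest of the NT females for Lamb3 (1.34 CPM) and highest for Sfrp1 (25.6 CPM), 2012, lowest of them for Cnr1 (744 CPM), and 5023, highest of the LB females for Mir3546 (1.74 CPM).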

How the results depend on the processing

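The number of genes called with all females was 6 with DESeq2, 3 with limma-voom, 1971 with library weights, 1467 with weights among females alone, 7 with weights without 8024 and 0 with the meningeal covariate, and 1 to 7 with 1 female left out, the 7 without 8021. Without 5022 it was 4, 1, 1555, 1036, 2 and 0 in the same order, 2 with variances per group, and 1 to 2 with a further female left out. The interaction of sex and treatment gave 45 calls with library weights, 1 (Aldh1a2) with weights without 8024, and 0 to 1 with 1 female left out, the 1 being Cdh1 without 8021. The LB minus NT share of counts in long genes was -2.31 points from 4000 bases and -0.367 from 8000, and -1.48 (without 8021, exact permutation p = 0.0433) to -0.519 with 1 female left out.

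Of 80 named genes 71 kept 1 sign in every setting. With the length covariate the log2 fold change turned to 0.0030 for Cnr1, 0.034 for Dagla, -0.045 for Daglb, 0.25 for Napepld, 0.22 for Ptgs2 and 0.0044 for Nr3c1, with the meningeal covariate to 0.11 for Col3a1, 0.13 for Dagla, 0.024 for Ptgs2, 0.51 for Ptges and 0.0049 for Sfrp1, and with the deep nucleus covariate to 0.023 for Dagla. With 1 female left out it ran from -0.103 to 0.059 for Dagla, -0.011 to 0.117 for Daglb, -0.26 to 0.11 for Napepld and -0.35 to 0.10 for Ptgs2. The cause was not tested. No paired analysis was possible because replicate numbers were given in accession order and the titles of the groups share no numbers. Depth limits genes near 3 counts, such as Upk1b.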
